A study of Homo sapiens with 6 samples.

Results

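The DHRS genes encode short-chain dehydrogenases/reductases, and 10 of them (DHRS1, DHRS2, DHRS3, DHRS4, DHRS7, DHRS7B, DHRS9, DHRS11, DHRS12 and DHRS13) were followed in poly(A) RNA of the established human cell line PANC-1, which derives from a pancreatic ductal carcinoma. They are 10 of the 60612 genes in the deposited table, and each had 1 row there. The group was chosen from a measured value. DHRS2 had been called higher with raffinose in this same comparison, and the other 9 genes were added by their names. What DHRS2 did is therefore given as a description, and the comparison of the groups supports nothing about the choice of the family. Of the 6 libraries, 3 came from PANC-1 cells given 50 µM D(+)-Raffinose pentahydrate, a plant trisaccharide, for 24 h, and 3 from PANC-1 cells for which the labels name no agent, vehicle or time. The labels give all samples the same serum-containing medium. They do not state that replicates are separate cultures. The p-values therefore weigh the difference between the groups against the scatter among these libraries, and that scatter may be technical.

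Short-chain dehydrogenases fold around a bound nicotinamide cofactor and oxidise alcohols or reduce carbonyl groups of steroids, retinoids, lipids and foreign compounds. DHRS2, also called HEP27, is an NADPH-dependent carbonyl reductase found in mitochondria and in the nucleus, where a processed form can bind MDM2, the ubiquitin ligase of p53. DHRS3, DHRS4, DHRS9 and DHRS13 are linked to the interconversion of retinol and retinal, the step before retinoic acid, while DHRS11 acts on keto groups of steroids. DHRS7B works in ether lipid synthesis.

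DHRS2 had the lowest mean level of the family in untreated cells, where its libraries overlapped with those of DHRS12, and ranked 6 of 10 by mean with raffinose, where they overlapped with those of DHRS1. In FPKM, the authors' measure of level per length of gene and per sequenced fragment, DHRS2 stood at 0.846, 0.839 and 0.836 in untreated replicates 1, 2 and 3. With raffinose it stood at 2.20, 2.36 and 2.37. All 3 raffinose libraries lay above all 3 untreated ones, and the spread within each group was small against the gap between them. The mean was 0.840 ± 0.00494 FPKM without and 2.31 ± 0.0951 FPKM with raffinose (SD, n = 3 per group).

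The deposited counts gave a similar picture for DHRS2 (ENSG00000100867, chromosome 14, 23630115 to 23645639, plus strand, 10 transcripts merged). Untreated libraries held 510, 490 and 452 counts and raffinose libraries 1262, 1351 and 1344. Scaled to library size as CPM (counts scaled to library size, with TMM factors), these were 7.94, 7.60 and 7.64 against 19.7, 21.3 and 20.9. The ratio of the mean CPM was 2.67, and the log2 fold change fitted by edgeR was 1.42 (SE 0.09). Without untreated replicate 3 the value was 1.41 and DHRS2 was no longer called (adjusted p = 0.0596), while it was called without any other single library. No other gene of the table overlapped the DHRS2 body on either strand. Counts are per gene, so the transcripts of DHRS2 cannot be told apart, nor can more RNA per cell and more cells that carry it.

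The promoters of DHRS2 and of DHRS4 are shown because the gene that led to this choice of family and the member nearest to it on the chromosome have start regions of different make-up. Both windows run from 250 bases before to 50 after a start site in RefSeq (GRCh38.p14), chr14:23629865-23630164 for DHRS2 and chr14:23953520-23953819 for DHRS4, both on the plus strand. Capitals mark TATAAA in DHRS2 and GGGCGG, on either strand, in DHRS4.
DHRS2: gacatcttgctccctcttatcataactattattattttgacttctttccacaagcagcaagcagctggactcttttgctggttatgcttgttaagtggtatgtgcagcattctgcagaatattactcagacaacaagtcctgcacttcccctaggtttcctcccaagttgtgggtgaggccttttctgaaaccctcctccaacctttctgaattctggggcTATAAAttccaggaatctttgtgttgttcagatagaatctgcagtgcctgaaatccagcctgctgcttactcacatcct
DHRS4: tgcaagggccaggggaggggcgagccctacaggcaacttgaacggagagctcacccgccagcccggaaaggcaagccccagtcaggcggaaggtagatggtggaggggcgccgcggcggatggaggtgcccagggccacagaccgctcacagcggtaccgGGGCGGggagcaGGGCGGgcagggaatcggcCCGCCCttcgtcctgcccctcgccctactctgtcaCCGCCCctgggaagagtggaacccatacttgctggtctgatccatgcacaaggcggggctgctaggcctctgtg

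The DHRS2 window held 0 CpG dinucleotides and 44.0% G and C, against a median of 14 CpG and 58.7% over all 35116 RefSeq windows of 300 bases. As few CpG were found in 3.96% of all windows. It held 1 TATAAA, at -29 relative to the start site, and neither GGGCGG nor CCAAT, with both strands searched. TATAAA occurs in 11.5% of all windows, GGGCGG in 45.0% and CCAAT in 34.6%. The DHRS4 window held 20 CpG, 68.7% G and C, 4 matches to GGGCGG and no TATAAA. Among the 9 members with a window (18 windows in all), DHRS9 also had few CpG, with 0 to 4 in its 4 windows and TATAAA in 3 of them. DHRS3 had 5 to 31 and DHRS7B 6 to 22 over their windows. DHRS11, with 36 CpG, and DHRS12, with 33 to 40, were rich in it. These matches describe the letters of the windows and no binding was measured.

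Over the family, 1 of 10 members was called higher (DHRS2) and 0 lower by edgeR at a Benjamini-Hochberg adjusted p under 0.05. All 10 had enough counts to be tested. Over all 18863 tested genes 0.122% were called, 0.0371% higher and 0.0848% lower, and since DHRS2 was picked from this comparison nothing is read from its count. At an unadjusted p under 0.05, 3 members were higher (DHRS2, DHRS7 and DHRS3) and 0 lower, where 6.21% of all tested genes were higher and 13.3% differed in either direction. DESeq2, run as an alternative, called DHRS2 and DHRS7 higher and none lower, where it called 1.35% of all tested genes higher. DHRS2 stands in each of these counts through the choice of the family, so nothing is read from it there. Of the 9 other members, DHRS7 and DHRS3 were higher at an unadjusted p under 0.05, and DESeq2 called DHRS7. The fitted log2 fold change was positive for 6 members and negative for 4, with a median of 0.05 beside 0.01 over all tested genes. Without DHRS2 the median of the 9 was also 0.05.

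**Figure D1:**
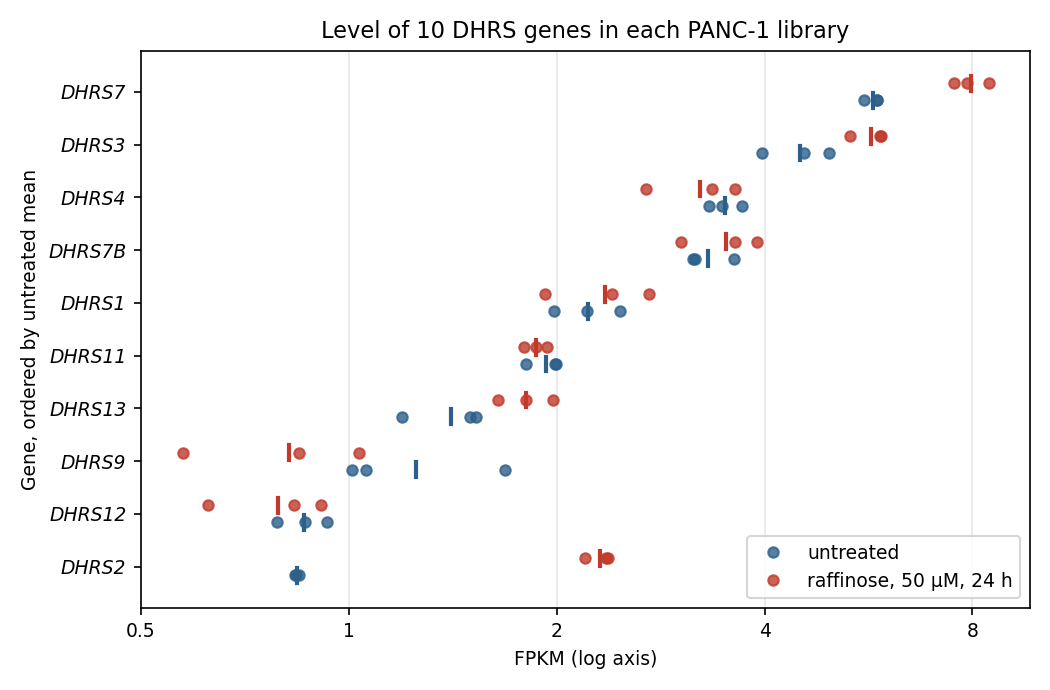
FPKM of the 10 DHRS genes on a log axis, with 1 point for each library (blue untreated, red raffinose, 3 each) and a tick at each group mean. DHRS2 moves from 0.840 to 2.31 FPKM with no overlap, DHRS7, DHRS3 and DHRS13 also have separate groups, and the points of the other 6 genes overlap.

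Scored in CPM, as for the lists below, the groups did not overlap for 4 members, DHRS2, DHRS7, DHRS3 and DHRS13, all higher with raffinose. DHRS2 was picked for being higher in this comparison, so nothing is read from its separation. Of the 9 other members, DHRS7, DHRS3 and DHRS13 had separate groups. Among all tested genes the groups were apart in 21.5%, with 10.6% higher and 10.9% lower.

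DHRS7, a membrane-bound reductase of the endoplasmic reticulum, was the most abundant member in every library. It stood at 5.82, 5.58 and 5.81 FPKM in untreated replicates 1, 2 and 3 and at 8.47, 7.87 and 7.53 FPKM with raffinose. The lowest raffinose library was above the highest untreated one, and the means were 5.73 ± 0.137 and 7.95 ± 0.476 FPKM (SD, n = 3 per group). The log2 fold change of DHRS7 was 0.43 (SE 0.08, 95% interval 0.24 to 0.63), and it did not pass over all genes by edgeR (adjusted p = 0.146), while DESeq2 called it (adjusted p = 0.00209). DHRS7 (ENSG00000100612, chromosome 14, 60144119 to 60169856, minus strand) shares 25015 bases with PCNX4 on the opposite strand. PCNX4 was at 44.0, 45.5 and 75.1 CPM in untreated and 42.6, 52.6 and 60.7 CPM in raffinose libraries, with overlapping groups. Whether the counting used the strand is not given in the sources used here, so reads of these 2 genes may be mixed, and the part this has in the DHRS7 value was not tested.

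None of the retinoid-linked members DHRS3, DHRS13, DHRS9 and DHRS4 passed by edgeR. DHRS3, a retinal reductase that retinoic acid is known to induce, was at 4.96, 4.56 and 3.96 FPKM without and 5.90, 5.87 and 5.33 FPKM with raffinose. Its groups were apart by a small margin, 4.96 against 5.33 FPKM, and in CPM they nearly touched, at 21.7 against 21.8. The log2 fold change of DHRS3 was 0.30 (SE 0.12, 95% interval 0.02 to 0.58, adjusted p = 0.344).

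DHRS13 was at 1.496, 1.20 and 1.53 FPKM without and 1.97, 1.80 and 1.64 FPKM with raffinose. Its log2 fold change was 0.32 (SE 0.16, 95% interval -0.05 to 0.70). The groups were just apart and the difference did not pass (adjusted p = 0.442). Without untreated replicate 2, the lowest library, the value was 0.21.

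DHRS9, a retinol dehydrogenase of epithelia, had the lowest fitted value of the family, -0.64 (SE 0.29, 95% interval -1.35 to 0.06, adjusted p = 0.414). It was at 1.06, 1.01 and 1.68 FPKM without and 0.846, 1.04 and 0.575 FPKM with raffinose. Untreated replicate 3 was the highest library, and without it the value was -0.38. Raffinose replicate 3 was the lowest, and without it the value was -0.44. Leaving out any other library gave -0.67 to -0.86, the latter without raffinose replicate 2.

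DHRS4, a peroxisomal carbonyl and retinal reductase, was at 3.48, 3.32 and 3.71 FPKM in untreated libraries and 3.36, 2.70 and 3.63 FPKM with raffinose. The groups overlapped and the log2 fold change was -0.16 (SE 0.13, 95% interval -0.48 to 0.16, adjusted p = 0.668). Raffinose replicate 2 was the lowest library, and without it the value was -0.054, while without raffinose replicate 3 it was -0.24. Here the gene copies beside it matter for how the level is read. DHRS4L2 and DHRS4L1 are near-identical copies next to DHRS4 on chromosome 14, and reads can be split among them in ways that differ by library.

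DHRS4L2 was at 8.47, 5.74 and 6.93 CPM in untreated replicates 1, 2 and 3 and at 6.95, 4.17 and 0.606 CPM with raffinose. Raffinose replicate 3 was far below the other 5 libraries. Of the counts given to the 3 copies, 6.21% went to DHRS4L2 in that library, against 37.2% and 44.6% in the other raffinose libraries and 39.9% to 47.4% in untreated ones. DHRS4L1 was at 0 counts in all raffinose libraries and at most 0.220 CPM in untreated ones.

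Summed over the 3 copies, the level was 17.9, 14.4 and 16.8 CPM without and 15.6, 11.2 and 9.76 CPM with raffinose. The groups still overlapped, with means of 16.4 ± 1.79 and 12.2 ± 3.03 CPM (SD, n = 3 per group). Fitted on this sum, a step added after seeing the data, the log2 fold change was -0.43 in place of -0.16, and it did not pass. DHRS4-AS1, an antisense transcript that shares 1359 bases with DHRS4, was at 4.76 to 5.93 CPM without and 3.48 to 6.15 CPM with raffinose.

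**Figure D2:**
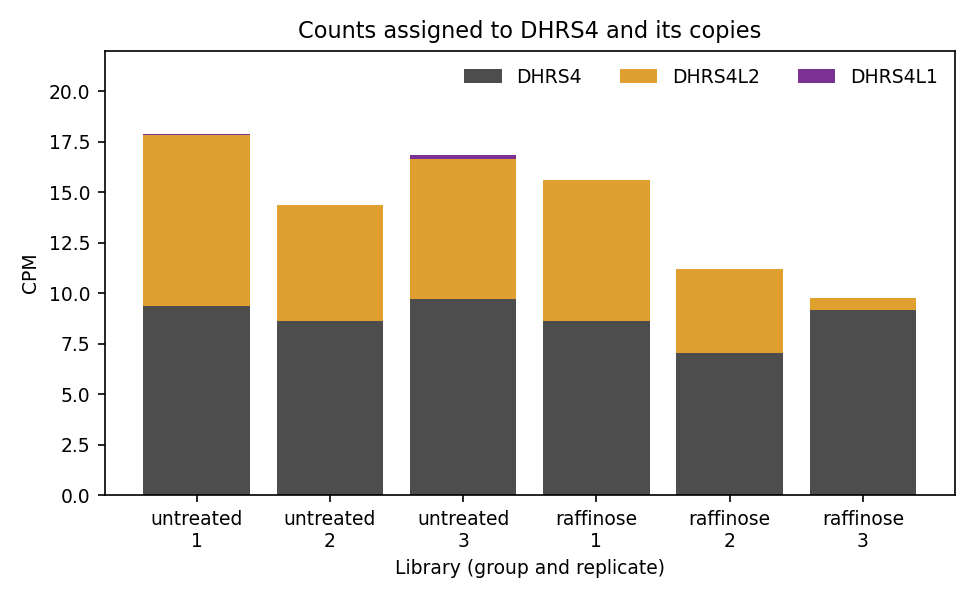
Stacked CPM assigned to DHRS4, DHRS4L2 and DHRS4L1 in each of the 6 libraries, untreated on the left and raffinose on the right. DHRS4 alone stays between 7.03 and 9.70 CPM, while the DHRS4L2 part shrinks to 0.606 CPM in raffinose replicate 3.

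The remaining members showed overlapping groups. DHRS7B, the ether lipid enzyme, was at 3.61, 3.17 and 3.15 FPKM without and 3.62, 3.90 and 3.03 FPKM with raffinose. Its log2 fold change was 0.05 (SE 0.13, 95% interval -0.26 to 0.36, adjusted p = 0.905), and -0.041 without raffinose replicate 2.

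DHRS1, a reductase of the endoplasmic reticulum, was at 1.98, 2.22 and 2.47 FPKM without and 1.93, 2.72 and 2.41 FPKM with raffinose, and had a log2 fold change of 0.05 (SE 0.15, 95% interval -0.32 to 0.42). Without raffinose replicate 2 it was -0.082, and without untreated replicate 1 it was -0.017. DHRS11, the keto-steroid reductase, was at 1.99, 2.00 and 1.81 FPKM without and 1.80, 1.86 and 1.94 FPKM with raffinose. Its log2 fold change was -0.09 (SE 0.09, 95% interval -0.31 to 0.14). With 1 library left out it ran from -0.14 (without untreated replicate 3) to -0.052 (without untreated replicate 1).

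DHRS12, a little-studied member, was at 0.864, 0.931 and 0.787 FPKM without and 0.625, 0.834 and 0.912 FPKM with raffinose. Its log2 fold change was -0.16 (SE 0.18, 95% interval -0.60 to 0.28). Raffinose replicate 1 was the lowest library, and the other 5 lay between 0.787 and 0.931 FPKM. Without it the value was -0.018, and without raffinose replicate 3 it was -0.26.

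**Figure D3:**
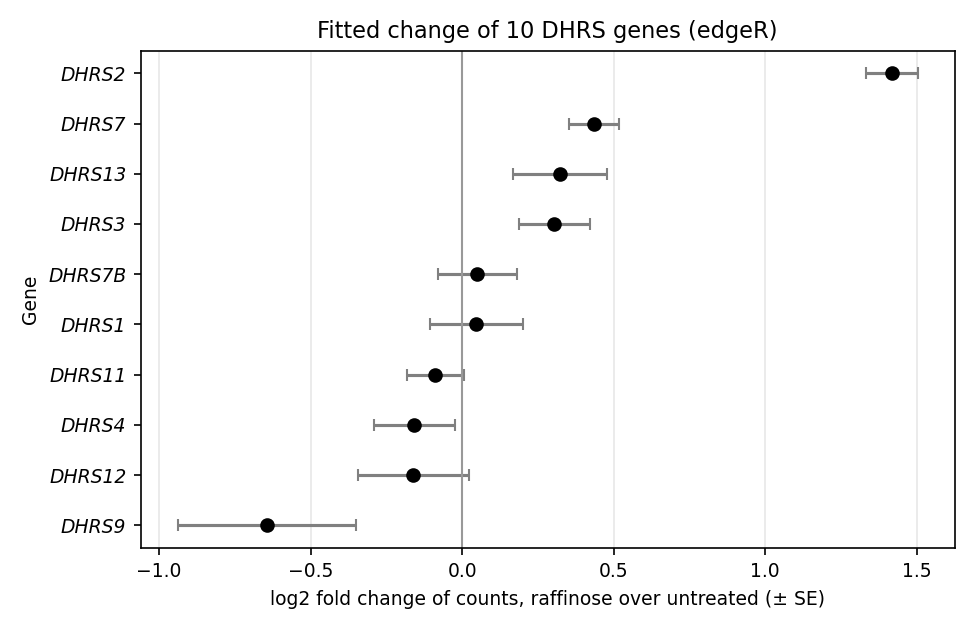
Log2 fold change of counts, raffinose over untreated, for the 10 DHRS genes (points, edgeR) with the standard error as bars. DHRS2 lies at 1.42, the next gene DHRS7 at 0.43, and DHRS9 is lowest at -0.64.

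The order of the family by mean FPKM without raffinose was DHRS7, DHRS3, DHRS4, DHRS7B, DHRS1, DHRS11, DHRS13, DHRS9, DHRS12 and DHRS2. The libraries overlapped between DHRS4 and DHRS7B, between DHRS1 and DHRS11, between DHRS13 and DHRS9 and between DHRS12 and DHRS2, so those neighbours did not differ beyond their spread. With raffinose DHRS2 took rank 6, overlapping with DHRS1 at 2.35 FPKM and above DHRS11 at 1.87 FPKM in every library. The order was otherwise alike, with DHRS7B and DHRS4 exchanged and overlapping. DHRS4 and DHRS1, DHRS11 and DHRS13, and DHRS9 and DHRS12 also overlapped with raffinose.

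Summed over the 10 members, the level was 24.8 to 26.1 FPKM in untreated and 29.4 to 30.9 FPKM in raffinose libraries. The mean sum was higher by 4.78 FPKM, of which DHRS7 made up 2.22, DHRS2 1.47 and DHRS3 1.20. DHRS2 was picked for being higher, so nothing is read from its part. The size of the difference also depends on the scaling. For DHRS7 the ratio of group means was 1.39 in FPKM and 1.35 in CPM, and for DHRS2 2.75 and 2.67. DHRS2 held 3.29% of the sum without and 7.62% with raffinose. On this additive scale DHRS7, the abundant member with the smaller ratio, contributed more than DHRS2.

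The locus of DHRS2 was examined for neighbours that moved with it. Of 55 genes whose body lies at most 500000 bases away or reaches into that window, 25 were tested. By edgeR 0 were called in either direction, where it called 0.122% of all tested genes. At an unadjusted p under 0.05 there were 2 higher and 1 lower, where 6.21% of all tested genes were higher and 7.08% lower. DESeq2 called 1 higher (HOMEZ) and 0 lower, where it called 1.35% of all tested genes higher and 2.17% lower. The median log2 fold change of the 25 was 0.002, against 0.01 over all tested genes. Groups were apart for 5 of the 25 neighbours, near the 21.5% over all tested genes.

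HOMEZ, a homeodomain protein gene 330668 bases before DHRS2, was at 8.95, 9.27 and 9.36 CPM without and 13.1, 12.8 and 13.0 CPM with raffinose. Its groups were well apart and differed by 0.49 on the log2 scale (SE 0.09), without passing (adjusted p = 0.123). AP1G2, an adaptor subunit of vesicle traffic that lies 62045 bases away, differed by 0.30 on the log2 scale (SE 0.11, adjusted p = 0.322). PPP1R3E had -0.999 (SE 0.35, adjusted p = 0.310) with overlapping groups, and the long non-coding gene AL135999 had 0.33 (SE 0.17). AL135999 lies almost wholly inside AP1G2 on the opposite strand, so reads of these genes may be mixed as well. PPP1R3E shares part of its body with HOMEZ on the same strand, and both reach into BCL2L2 on the opposite strand. Reads may be mixed there too, and the part this has in the HOMEZ and PPP1R3E values was not tested.

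The nearest tested gene before DHRS2 was JPH4, at 51330 bases, with a low level of 0.192 CPM without and 0.256 CPM with raffinose. On the other side it was DHRS4-AS1, at 292580 bases. DHRS4 itself lies 308095 bases from DHRS2.

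**Figure D4:**
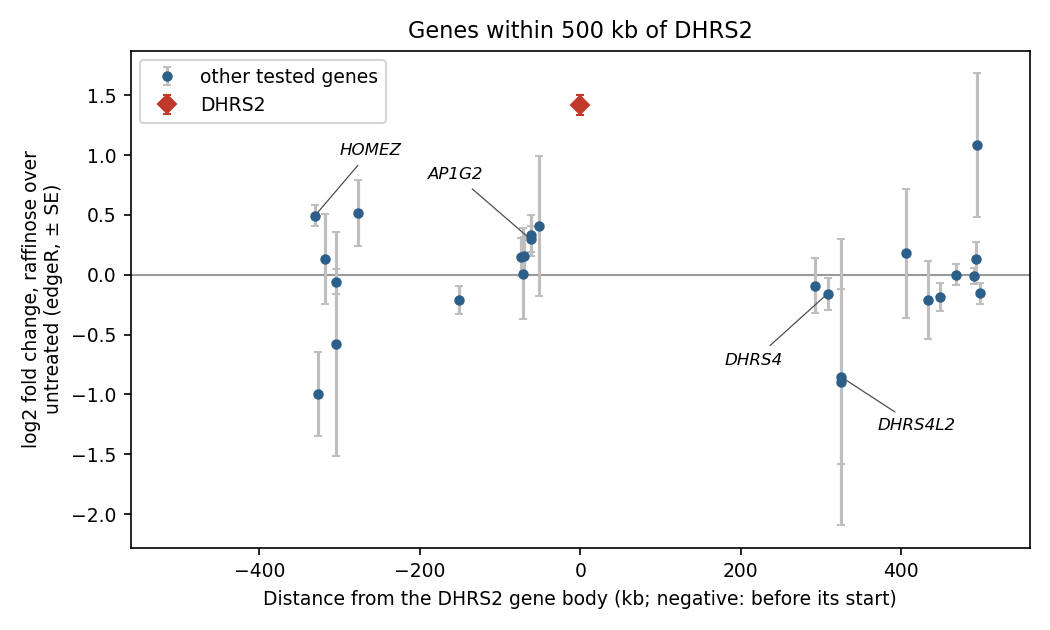
Log2 fold change, raffinose over untreated (edgeR, bars are the standard error), of the 25 tested genes within 500 kb of DHRS2 against their distance from its gene body in kb. DHRS2 at 1.42 stands above all plotted neighbours, HOMEZ is at 0.49, and DHRS4 and DHRS4L2 lie at -0.16 and -0.85.

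Other genes that bear a DHRS name now or as a synonym did not pass. Of 8 such genes 6 were tested, 3 positive and 3 negative, with 0 called by edgeR, 0 at an unadjusted p under 0.05 and 0 by DESeq2. Shares over all tested genes were 0.122% by edgeR, 13.3% at that unadjusted p, and 1.35% higher and 2.17% lower by DESeq2. With 6 genes tested, nothing is read from these counts. DHRSX had 13.7 ± 0.962 CPM in untreated and 14.8 ± 2.56 CPM in raffinose libraries, and BDH2, once called DHRS6, at 4.21 ± 0.519 and 4.49 ± 0.781 CPM (SD, n = 3 per group). HSD17B14 was at 9.68 ± 1.70 and 9.04 ± 0.697 CPM. DHRS7C was at 0 counts in all 6 libraries.

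Of 33 genes for retinoid oxidation, transport and reception, 19 were tested and 0 were called by edgeR, which called 0.122% of all tested genes. At an unadjusted p under 0.05 there were 2 higher and 2 lower of the 19, where 6.21% of all tested genes were higher and 7.08% lower. DESeq2 called CRABP2 higher and none lower, where it called 1.35% of all tested genes higher and 2.17% lower. That call lay just under the threshold (DESeq2 adjusted p = 0.04999). The median log2 fold change was 0.05. CRABP2, which carries retinoic acid to its nuclear receptors, was at 1.37, 1.74 and 1.27 CPM without and 2.59, 2.24 and 2.61 CPM with raffinose. The groups were apart by 0.77 on the log2 scale (SE 0.19, adjusted p = 0.199).

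Lower values in this list belonged to STRA6, the cellular retinol importer, with -1.04 on the log2 scale (SE 0.31, adjusted p = 0.262), and to RDH11, a retinal reductase, with -0.29 (SE 0.09, adjusted p = 0.278). The level of STRA6 was low, with group means of 0.147 FPKM without and 0.0718 FPKM with raffinose. RDH16 had 1.04 (SE 0.43) from 0.226 ± 0.0877 CPM. CRABP2 and RDH16 were thus on one side and STRA6 and RDH11 on the other, and none passed over all genes. Groups were apart for 9 of these 19 genes, 5 higher and 4 lower, where 21.5% of all tested genes had groups apart, 10.6% higher and 10.9% lower.

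Among 19 hydroxysteroid dehydrogenase genes 14 were tested, with 3 positive and 11 negative values and a median of -0.16. Of the 14, 0 were called by edgeR, at an unadjusted p under 0.05 or by DESeq2. Shares over all tested genes were 0.122% by edgeR, 13.3% at that unadjusted p, and 1.35% higher and 2.17% lower by DESeq2. Over all tested genes 9625 were positive and 9238 negative, with a median of 0.01. Groups were apart for 1 of the 14, higher with raffinose, where 21.5% of all tested genes had groups apart and 10.6% were higher. HSD17B8, of mitochondrial fatty acid synthesis, was lowest among the 4 with the smallest p, at -0.42 on the log2 scale (SE 0.20, adjusted p = 0.428). HSDL2 had 0.12 (SE 0.06), HSD17B1 -0.32 (SE 0.18) and HSD17B4, a peroxisomal beta-oxidation enzyme, 0.06 (SE 0.06).

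All 28 carbonyl reductases and other short-chain dehydrogenases listed were tested, with 10 positive and 18 negative values and a median of -0.08. Over all tested genes there were 9625 positive and 9238 negative values and a median of 0.01. Groups were apart for 5 of the 28, all lower with raffinose, where 21.5% of all tested genes had groups apart and 10.9% were lower. By edgeR 0 were called and by DESeq2 0, where edgeR called 0.122% of all tested genes and DESeq2 1.35% higher and 2.17% lower. At an unadjusted p under 0.05, 2 of 28 were lower, near the 7.08% of all tested genes. The 2 were TSTA3, which makes GDP-fucose (-0.33, SE 0.10, adjusted p = 0.253), and UXS1, which makes UDP-xylose (-0.38, SE 0.13, adjusted p = 0.304). SPR, which makes tetrahydrobiopterin, had -0.18 (SE 0.08, adjusted p = 0.397).

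MDM2, the known partner of the DHRS2 protein, had a mean of 84.2 ± 8.72 CPM in untreated and 92.8 ± 7.16 CPM in raffinose libraries. Of 7 listed genes, made up of MDM2, its regulators and CDKN1A, 6 were tested. Of these 0 were called by edgeR, at an unadjusted p under 0.05 or by DESeq2. Shares over all tested genes were 0.122% by edgeR, 13.3% at that unadjusted p, and 1.35% higher and 2.17% lower by DESeq2. With 6 genes tested, nothing is read from these counts. CDKN1A was at 74.9 ± 7.98 and 87.0 ± 7.08 CPM, USP7 at 135 ± 9.46 and 129 ± 7.19 CPM, and RPL5 at 638 ± 117 and 679 ± 22.9 CPM (SD, n = 3 per group).

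The 5 genes with profiles most like DHRS2 over the 6 libraries were EGR1, TMEM123, SERPINI1, SLC39A9 and SYDE1. Likeness was the root mean square difference of log2 CPM after centring each gene on its mean, among tested genes with a mean of at least 1 FPKM in a group. It was 0.12 for EGR1, 0.17 for TMEM123, 0.18 for SERPINI1, 0.21 for SLC39A9 and 0.22 for SYDE1. SERPINI1, a neuronal serine protease inhibitor, had 2.85 ± 0.289 CPM in untreated and 6.20 ± 0.706 CPM in raffinose libraries (SD, n = 3 per group) and did not pass by edgeR (adjusted p = 0.0861). Since the libraries form 2 groups, this measure mostly finds genes with a like difference between them. Of the other DHRS members, DHRS7 was nearest at 0.50 and DHRS9 farthest at 1.09.

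Library totals ranged from 59723420 to 66063664 counts. A count of 4 was far more frequent than 3 or 5 (1255 to 1382 genes a library against 440 to 497 and 229 to 286), so 1 read pair appears to add about 4, and counts overstate fragments. The simple-epithelium keratins KRT8 and KRT18 marked all libraries, while KRT19 and EPCAM, also ductal markers, were at most 0.158 and 0.229 FPKM in group means. The 8 ductal and carcinoma markers summed to 865 to 1003 FPKM without and 667 to 700 FPKM with raffinose. The T-cell marker CD3E was at 0, and the sum over 5 leukocyte markers of 12.3 to 15.8 FPKM without and 6.63 to 9.11 FPKM with raffinose was nearly all CD68 (14.01 and 8.20 FPKM in group means). Of the 5 acinar markers all were at 0, as were 3 of 4 endocrine markers, INS, GCG and SST. Fibroblast markers summed to 3.35 to 3.75 and 3.97 to 4.38 FPKM, nearly all COL1A1, endothelial markers to at most 0.117 FPKM and hepatocyte markers to at most 0.776 FPKM. By edgeR 0 of these markers were called, where it called 0.122% of all tested genes. DESeq2 called the ductal markers KRT18, KRT8 and KRT7 and the leukocyte marker CD68 lower, where it called 2.17% of all tested genes lower. The ductal, leukocyte and fibroblast sums thus also differed between the groups, and their part in the DHRS values was not tested.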

How the data were processed

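The authors deposited 1 table with an FPKM value and a whole-number estimated count per gene and library, per the file headers. Per the labels' protocols the libraries are poly(A)-selected and strand-marked. Tools listed in the submitters' processing notes, with no role stated, are HISAT2 2.0.4, StringTie 1.3.4d, cutadapt 1.9, DESeq2 and edgeR. Of the genome build, the annotation and the strand setting, nothing is given in the sources used here. Coordinates are those of the table, and 4 of 10 members have the same start and end in GENCODE 29 (the largest difference is 479 bases). The members and gene lists were chosen with earlier results of these data known.

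Counts were fitted as deposited with edgeR 4.0.16 (R 4.3.3): filterByExpr with a minimum count of 10, TMM, glmQLFit and glmQLFTest, Benjamini-Hochberg adjustment over 18863 genes, called under 0.05. The SE is the absolute log2 fold change over the square root of F. Of 144 list entries 142 matched a row. Named genes are the members, up to 4 genes of smallest p per list and among the neighbours, the nearest tested gene on each side of DHRS2, and the 5 profiles most like it. Of the genes this rule or the marker lists select, 2 are not reported here. The fit was tested on simulated data. Alternatives were DESeq2 1.42.0, median ratio scaling, no filter, a mean of at least 1 FPKM, counts divided by 4, limma 3.58.1 on log2(FPKM + 1), log2(FPKM + 0.1) and log2(FPKM + 0.01) for genes with a mean of at least 0.1 FPKM in a group, robust dispersion, the replicate number as a block, and each library left out.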

Additional observations from a re-analysis of the deposited data

How the results depend on the processing

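DHRS2 was called in 14 of 16 alternatives, with log2 fold changes from 0.85 (limma on log2(FPKM + 1), where the pseudocount shrinks low genes) to 1.45. It was not called without untreated replicate 3 (1.41, adjusted p = 0.0596), with leave-one-out values from 1.39 to 1.45. With the replicate number as a block it had 1.42 (adjusted p = 0.265). Libraries sharing a number had correlated deviations of -0.01, -0.03 and 0.01, so no pairing was seen. DESeq2 called 2 members higher, adding DHRS7, and the block called 0 members. Members called higher ranged from 0 to 1 with a library left out. DHRS7 was called by DESeq2 alone (adjusted p from 0.00209 to 0.430 over 16 alternatives). With a library left out, DHRS1 ranged from -0.082 to 0.172 (negative without raffinose replicate 2 or untreated replicate 1) and DHRS7B from -0.041 to 0.156 (negative without raffinose replicate 2). The other 8 members kept their direction in all alternatives run. Of the list genes and neighbours, marker lists left out, DESeq2 called 2 higher in place of 0. These were HOMEZ and CRABP2, the latter just under the threshold. Of the markers DESeq2 called KRT18, KRT8, KRT7 and CD68 lower.

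Against 7 genes higher and 16 lower among all tested, DESeq2 called 254 and 409, the FPKM filter 15 and 27, and the block 0 and 0. Counts divided by 4 gave 11 and 24, and limma on log2(FPKM + 0.1) gave 11 and 15. With a library left out, 0 to 15 were higher and 4 to 13 lower, with 0 and 4 without untreated replicate 3. For these differences the cause was not tested. With 3 libraries a group the precision differed by member, and among the members the 95% interval was widest for DHRS9 (-1.35 to 0.06).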
